A study of Mus musculus with 19 samples.

Results

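The comparison set MrgprA3+ sensory neurons against MrgprA3- neurons of the same dorsal root ganglia (DRG) in control mice, and asked which transcripts distinguish this small population of itch neurons from the neurons around it. It used 10 of the 19 libraries of the series, 5 of MrgprA3+ and 5 of MrgprA3- neurons, chosen by their group labels. The mice were C57BL/6 males, 2 months old, genetically labelled so that MrgprA3+ neurons were green fluorescent. The sources used here do not give the construct of the label. Control mice had only acetone on the skin, the solvent of squaric acid dibutylester, which was given to the other mice to produce allergic contact dermatitis (ACD). On day 13 the 16 ganglia from T11 to L6 were taken from each of the 5 mice of a treatment, and both populations were sorted from every animal. MrgprA3+ neurons were gated on green fluorescence. MrgprA3- neurons were gated for a shape like that of the green cells, so that they stand for neurons of that shape and not for the whole ganglion. The 9 libraries of ACD mice (4 of MrgprA3+ and 5 of MrgprA3- neurons) serve below as libraries in which genes chosen in control mice can be looked at again. No MrgprA3+ replicate 3 of ACD mice is among the 19 libraries.

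Neurons of the DRG carry touch, pain, temperature and itch from the skin, and each class is set apart by its own receptors, channels and peptides. MrgprA3 is a G protein-coupled receptor of the Mas-related family and the receptor through which the antimalarial drug chloroquine evokes itch in mice. Neurons that express it are C fibres that end in the epidermis, and are also called the NP2 class. Other itch neurons, the NP3 class, express the interleukin 31 receptor and the peptides natriuretic polypeptide b and somatostatin.

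Values are FPKM (fragments per kilobase of transcript, scaled to the mapped fragments of a library) from the authors' deposited table, so that they can be compared between genes of different length. Of 18666 genes, 11353 reached 1 FPKM in 4 or more of the 10 libraries and were kept. Differences are MrgprA3+ minus MrgprA3- means of log2(FPKM + 1), tested with limma, and "rose" and "fell" are used for genes past a Benjamini-Hochberg adjusted p of 0.05 over all genes kept. Values by library are given in the order of replicates 1 to 5, and means carry the SD of 5 libraries. Where a gene is given with its value in each library, the populations did not overlap unless an overlap is stated. In sorted pools, fewer cells of a type and less RNA per cell cannot be told apart. The labels do not say that a replicate number marks a mouse, and p-values measure the spread between these libraries. Both populations came from the same mice, but apart from the replicate block given below the tests treated all libraries as independent. Estimated depth was 10.3 to 15.6 M (mega) fragments in MrgprA3+ and 13.6 to 17.8 M in MrgprA3- libraries.

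The sort was visible in the receptor that defines it. Mrgpra3 stood at 1190.3, 1065, 948, 1446 and 1007 FPKM in MrgprA3+ libraries, against 17.9, 16.4, 17.9, 22.5 and 26.4 FPKM in MrgprA3- libraries. Every MrgprA3+ library lay far above every MrgprA3- library (log2 difference 5.74, SE 0.14, adjusted p 6.88e-13), and the low but steady level in the MrgprA3- libraries was above 16 FPKM in each. Mrgprb4, a marker of neurons that respond to stroking and that share a lineage with MrgprA3 neurons, stood at 107, 38.7, 79.1, 56.3 and 26.9 FPKM in MrgprA3+ and 0.22, 0.56, 0.78, 0.70 and 0.33 FPKM in MrgprA3- libraries. Hrh1, the histamine H1 receptor, stood at 23.7, 10.7, 36.9, 17.2 and 15.5 FPKM in MrgprA3+ and 2.64, 1.87, 1.95, 2.21 and 2.20 FPKM in MrgprA3- libraries. All 3 markers separated the populations without overlap, the log2 differences being 5.22 for Mrgprb4 (SE 0.31) and 2.67 for Hrh1 (SE 0.27), in the direction of the label. Because the cells were chosen by their MrgprA3 label, the value of Mrgpra3 describes the sort and is no independent finding.

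Across the genes kept, 925 rose (8.15%) and 1789 fell (15.8%) in MrgprA3+ neurons, 2714 in all (23.9%), and 1132 of these differed by at least 1 in log2. Counts of gene lists below are to be read against the shares of all genes kept, 8.15% higher and 15.8% lower. Falls outnumbered rises under each scaling, but by how much depended on it: 65.9% of the calls were falls as deposited, 53.3% with median-ratio rescaling (1254 rises against 1432 falls) and 50.5% with quantile normalization (1324 against 1351). The median gene lay at -0.13 as deposited and at 0.04 after quantile normalization, so that differences of that size are relative. For 1983 genes (17.5%) the 5 MrgprA3+ and the 5 MrgprA3- libraries did not overlap. MrgprA3+ libraries spread more than MrgprA3- libraries, with a median SD of log2(FPKM + 1) of 0.430 against 0.209. Without MrgprA3- replicates 4 and 5, which stand apart in nerve injury genes (below), 488 genes were higher and 1023 lower with 8 libraries in place of 10.

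Within the Mrgpr family, 13 of 21 listed receptors were kept. Of these 7 rose and 1 fell, the median difference was 0.87 against -0.13 for all genes kept, and 5 did not pass. The summed FPKM of the 13 receptors lay between 1484 and 2066 in MrgprA3+ libraries and between 477 and 594 in MrgprA3- libraries. Mrgpra3 alone made up 60.6% to 70.2% of that sum in MrgprA3+ libraries and 3.02% to 5.20% in MrgprA3- libraries. Mrgprd, the receptor of the NP1 class of non-peptidergic neurons, made up 1.66% to 10.4% in MrgprA3+ libraries and 53.4% to 67.9% in MrgprA3- libraries. Both the lead and the total restate the sort: without Mrgpra3 the other 12 receptors summed to 451.6 to 661.5 FPKM in MrgprA3+ and 454.8 to 576.2 FPKM in MrgprA3- libraries, which overlap.

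Mrgpra7 stood at 46.2, 27.98, 32.6, 31.2 and 23.1 FPKM in MrgprA3+ libraries, against 0.20, 0.16, 0.11, 0.74 and 0.49 FPKM in MrgprA3- libraries. Mrgpra4 stood at 84.9, 59, 67.04, 64.8 and 49.9 FPKM in MrgprA3+ and 3.05, 2.26, 2.41, 2.63 and 3.08 FPKM in MrgprA3- libraries. Both were below 3.1 FPKM in each MrgprA3- library and at least 23 FPKM in each MrgprA3+ library (4.62, SE 0.23, and 4.15, SE 0.18). Mrgprx1, the mouse receptor for the itch peptide BAM8-22 and once named Mrgprc11, stood at 35.9, 45.6, 30.7, 26.3 and 23.9 FPKM in MrgprA3+ and 2.75, 2.30, 2.08, 3.57 and 3.22 FPKM in MrgprA3- libraries (log2 difference 3.12, SE 0.21, adjusted p 2.22e-07). Mrgpra2b was the second most abundant member in MrgprA3+ neurons at 151, 125, 134, 201 and 154 FPKM in MrgprA3+ libraries, against 48.6, 39.95, 39.2, 59.9 and 73.6 FPKM in MrgprA3- libraries. It was also plain in MrgprA3- neurons, and its difference of 1.55 (SE 0.17) was smaller, though the libraries did not overlap. Mrgpra1 overlapped between the populations, with 23.7 ± 6.36 FPKM in MrgprA3+ and 12.2 ± 2.54 FPKM in MrgprA3- libraries (0.87, SE 0.22, adjusted p 0.00847). Mrgpra8, which the list did not hold and which is among the 30 largest rises, averaged 16.1 ± 5.32 FPKM in MrgprA3+ and 2.53 ± 0.292 FPKM in MrgprA3- libraries (2.22, SE 0.24, adjusted p 1.02e-05).

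Mrgprd ran the other way, at 30.7, 39.04, 52.1, 54.5 and 174 FPKM in MrgprA3+ libraries, against 309, 336, 403, 255 and 279 FPKM in MrgprA3- libraries. MrgprA3+ replicate 5 was more than 3 times as high as the next MrgprA3+ library, and still below the lowest MrgprA3- library (log2 difference -2.43, SE 0.38, adjusted p 7.21e-04). Mrgpra9 (38.5 against 37.7 FPKM, adjusted p 0.962) and Mrgpra6 (11.01 against 13.6 FPKM, adjusted p 0.288) did not pass. Many members of the Mrgpra group are near copies of each other, so that reads could have been shared among them and the level of a single member is uncertain.

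**Figure D1:**
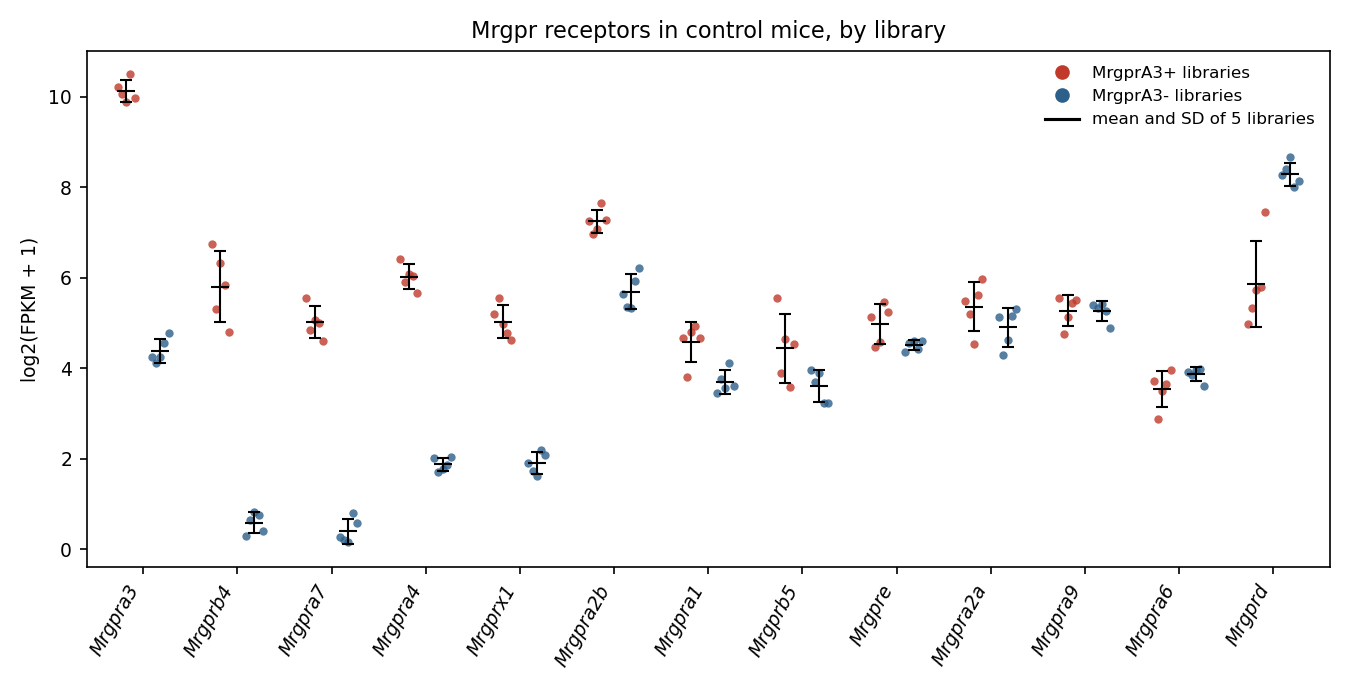
Level of the 13 listed Mrgpr receptors kept, as log2(FPKM + 1), in each of the 5 MrgprA3+ (red) and 5 MrgprA3- (blue) libraries of control mice, with mean and SD. Mrgpra8, which the list did not hold, is not shown. Mrgpra3, Mrgprb4, Mrgpra7, Mrgpra4 and Mrgprx1 are separated by over 3 in log2, Mrgpra9 and Mrgpra6 overlap, and Mrgprd is lower in MrgprA3+ libraries.

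Promoters are shown for Mrgpr receptors that moved with Mrgpra3, for the family member that moved against them, and for a pair of risen genes from outside the family, to let their base composition be seen. Each is the 250 bases before the annotated start from RefSeq (GRCm38.p6, while the deposited table refers to mm9), written 5′ to 3′ on the gene's own strand, with CpG dinucleotides in capitals. The first 4 lie on chromosome 7, Adora2b on chromosome 11 and Lxn, a carboxypeptidase inhibitor, on chromosome 3.
Mrgprb4, chr7:48199179-48199428, minus strand: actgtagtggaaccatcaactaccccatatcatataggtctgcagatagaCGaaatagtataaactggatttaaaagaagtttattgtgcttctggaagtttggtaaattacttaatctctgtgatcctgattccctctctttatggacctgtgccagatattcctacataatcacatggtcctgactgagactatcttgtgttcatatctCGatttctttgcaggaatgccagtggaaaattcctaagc
Mrgpra4, chr7:47982297-47982546, minus strand: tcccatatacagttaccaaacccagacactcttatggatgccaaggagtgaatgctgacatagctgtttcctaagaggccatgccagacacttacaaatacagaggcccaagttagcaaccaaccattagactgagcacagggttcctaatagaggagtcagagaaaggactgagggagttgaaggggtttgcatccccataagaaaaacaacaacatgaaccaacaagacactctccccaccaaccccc
Mrgprx1, chr7:48027598-48027847, minus strand: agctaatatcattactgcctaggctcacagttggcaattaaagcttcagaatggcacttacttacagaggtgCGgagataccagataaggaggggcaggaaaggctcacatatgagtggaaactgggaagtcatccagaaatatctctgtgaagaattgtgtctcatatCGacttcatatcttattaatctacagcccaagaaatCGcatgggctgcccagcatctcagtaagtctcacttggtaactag
Mrgprd, chr7:145314585-145314834, plus strand: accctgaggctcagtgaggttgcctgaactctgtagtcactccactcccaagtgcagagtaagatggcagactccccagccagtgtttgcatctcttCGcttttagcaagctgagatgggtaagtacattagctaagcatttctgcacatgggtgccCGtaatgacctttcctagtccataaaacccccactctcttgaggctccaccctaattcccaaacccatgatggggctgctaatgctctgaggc
Adora2b, chr11:62248734-62248983, plus strand: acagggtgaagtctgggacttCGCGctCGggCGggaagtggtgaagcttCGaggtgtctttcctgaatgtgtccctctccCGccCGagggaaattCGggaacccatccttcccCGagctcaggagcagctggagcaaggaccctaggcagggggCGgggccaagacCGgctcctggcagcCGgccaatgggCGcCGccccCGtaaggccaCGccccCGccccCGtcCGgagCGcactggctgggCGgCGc
Lxn, chr3:67463908-67464157, minus strand: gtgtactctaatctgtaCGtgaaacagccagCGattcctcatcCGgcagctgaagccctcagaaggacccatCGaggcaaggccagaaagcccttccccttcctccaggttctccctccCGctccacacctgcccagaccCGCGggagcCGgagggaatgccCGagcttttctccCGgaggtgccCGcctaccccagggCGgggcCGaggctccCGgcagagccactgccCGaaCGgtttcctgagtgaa

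The Mrgprb4, Mrgpra4 and Mrgprx1 promoters held 2, 0 and 3 CpG dinucleotides, and that of Mrgprd, which fell, also held 2. The promoters of Adora2b and Lxn held 22 and 16. Of the listed Mrgpr receptors kept, 10 of 13 had a promoter sequence, with a median of 1.5 CpG and at most 3 in 9 of them. The 24 promoters matched among the 30 largest rises had a median of 5 CpG and the 18 among the 30 largest falls one of 7.5, against 16 over the 8927 genes kept that had a sequence; a gene with several promoters entered with their mean. At most 3 CpG stood in 37.5% of the matched rises, 11.1% of the matched falls and 5.28% of all genes with a sequence. The matched rises include Mrgprb4, Mrgpra4 and Mrgprx1, with 2, 0 and 3 CpG, so that they are no set apart from the Mrgpr receptors. Over all called genes the promoters lay close to those of all genes, with a median of 14 CpG and at most 3 in 8.22% of 730 higher genes, and a median of 14 and at most 3 in 7.5% of 1360 lower genes. The core of RUNX factor sites was searched as TGTGGT or TGCGGT on both strands. It stood in the promoter of 2 of those 24 rises (8.33%) and 3 of the 18 falls (16.7%), against 1858 of 8927 genes (20.8%), 21.2% of all genes called higher and 20.7% of all called lower.

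Among receptors for other mediators of itch, pain and inflammation, the histamine and serotonin list held the most falls. Of 11 histamine and serotonin receptors kept of 18 listed, Hrh1 rose and 8 fell (72.7%, against 15.8% of all genes kept). Hrh2, the histamine H2 receptor, overlapped and stood at 0.33, 5.38, 3.02, 10.4 and 6.15 FPKM in MrgprA3+ libraries, against 1.68, 0.98, 1.31, 0.96 and 0.99 FPKM in MrgprA3- libraries. It was higher in 4 of the 5 MrgprA3+ libraries and low in replicate 1, and did not pass (1.17, SE 0.44, adjusted p 0.0644). The serotonin-gated channel subunit Htr3a averaged 30.7 ± 8.02 FPKM in MrgprA3+ and 91.8 ± 23.99 FPKM in MrgprA3- libraries (-1.55, SE 0.20, adjusted p 5.30e-05). Htr1d, an inhibitory serotonin receptor, averaged 0.662 ± 0.882 FPKM in MrgprA3+ and 9.85 ± 2.32 FPKM in MrgprA3- libraries (-2.81, SE 0.31, adjusted p 1.36e-05), and Htr5b differed by -2.47 (SE 0.44). Among protease and endothelin receptors (4 kept of 6), F2rl2, the thrombin-related receptor PAR3, was abundant in both populations and rose, at 249.8, 256, 231, 254 and 211 FPKM in MrgprA3+ and 163, 182, 167, 169 and 170.3 FPKM in MrgprA3- libraries (log2 difference 0.49, SE 0.09, adjusted p 6.89e-04).

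Purine and adenosine receptors split 3 higher to 3 lower of 10 kept of 18 listed. Each share was 30%, against 8.15% higher and 15.8% lower of all genes kept. Adora2b, the Gs-coupled adenosine A2B receptor, stood at 85.3, 63.5, 60.7, 56.1 and 23.6 FPKM in MrgprA3+ libraries, against 5.77, 5.19, 5.19, 4.49 and 5.26 FPKM in MrgprA3- libraries. The lowest MrgprA3+ library, replicate 5, was still above 4 times any MrgprA3- library (log2 difference 3.14, SE 0.26, adjusted p 9.96e-07). The inhibitory adenosine receptor Adora1 went the other way, averaging 16.4 ± 8.24 FPKM in MrgprA3+ and 45.1 ± 2.79 FPKM in MrgprA3- libraries (-1.53, SE 0.25, adjusted p 4.03e-04). P2ry2, a Gq-coupled receptor for ATP and UTP, stood at 34.3, 30.2, 24.3, 31.7 and 13.99 FPKM in MrgprA3+ libraries, against 3.52, 4.12, 5.29, 5.11 and 7.35 FPKM in MrgprA3- libraries without overlap (log2 difference 2.17, SE 0.25, adjusted p 1.92e-05). The ATP-gated channel subunit P2rx2 rose by less (16.2 against 7.83 FPKM; 0.97, SE 0.25).

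Lipid mediator receptors (12 kept of 24) had 1 rise (8.33%) and 6 falls (50%), against 8.15% and 15.8% of all genes kept. S1pr2, a receptor for sphingosine 1-phosphate, stood at 10.5, 13.4, 14.9, 10.4 and 8.89 FPKM in MrgprA3+ libraries, against 4.76, 2.75, 4.81, 1.76 and 3.07 FPKM in MrgprA3- libraries (log2 difference 1.54, SE 0.25, adjusted p 3.63e-04). Its relative S1pr3, a receptor of itch and pain neurons, averaged 9.72 ± 6.97 FPKM in MrgprA3+ and 64.3 ± 27.8 FPKM in MrgprA3- libraries (-2.91, SE 0.59, adjusted p 0.00443), so that these receptors for 1 ligand were ordered in opposite ways. The lysophosphatidic acid receptors Lpar1 (2.96 against 19.1 FPKM; -2.36, SE 0.23) and Lpar3 (8.15 against 28.2 FPKM; -2.39, SE 0.65) both fell, and Lpar3 spread from 0.57 to 23.6 FPKM within the MrgprA3+ libraries.

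Of 20 cytokine receptors and JAK and STAT genes kept of 29 listed, 2 rose and 4 fell, shares of 10% and 20% that lie near those of all genes. Il2rg, the common gamma chain, rose (8.79 against 3.12 FPKM; 1.32, SE 0.36). Tnfrsf1a, the main receptor of tumour necrosis factor, stood at 0.03, 0.04, 0.07, 0.12 and 0.07 FPKM in MrgprA3+ libraries, against 4.20, 5.91, 4.85, 5.83 and 6.83 FPKM in MrgprA3- libraries. No MrgprA3+ library reached 0.2 FPKM, and the difference was -2.60 (SE 0.21). The signal transducer Stat3 fell by less, averaging 140.3 ± 15.5 FPKM in MrgprA3+ and 201 ± 15.2 FPKM in MrgprA3- libraries (-0.52, SE 0.10, adjusted p 0.00146).

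Receptors that dampen neurons (15 kept of 26) had 10 falls (66.7%) and 1 rise (6.67%), against 15.8% and 8.15% of all genes kept. Npy2r, the neuropeptide Y receptor Y2, stood at 0.18, 0.37, 2.44, 1.43 and 3.01 FPKM in MrgprA3+ libraries, against 33.2, 37.6, 44.01, 27.6 and 45.9 FPKM in MrgprA3- libraries (log2 difference -4.10, SE 0.32, adjusted p 6.34e-07). Npy1r averaged 2.25 ± 1.02 FPKM in MrgprA3+ and 24.5 ± 4.12 FPKM in MrgprA3- libraries and the cannabinoid receptor Cnr1 averaged 0.178 ± 0.173 FPKM in MrgprA3+ and 6.14 ± 0.685 FPKM in MrgprA3- libraries. None of these 3 overlapped between the populations. Galr1, a galanin receptor, was the member that rose (8.37 against 3.73 FPKM; 0.95, SE 0.25, adjusted p 0.0119). The mu opioid receptor Oprm1 was low in both populations and did not pass (2.38 against 2.70 FPKM, adjusted p 0.621).

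**Figure D2:**
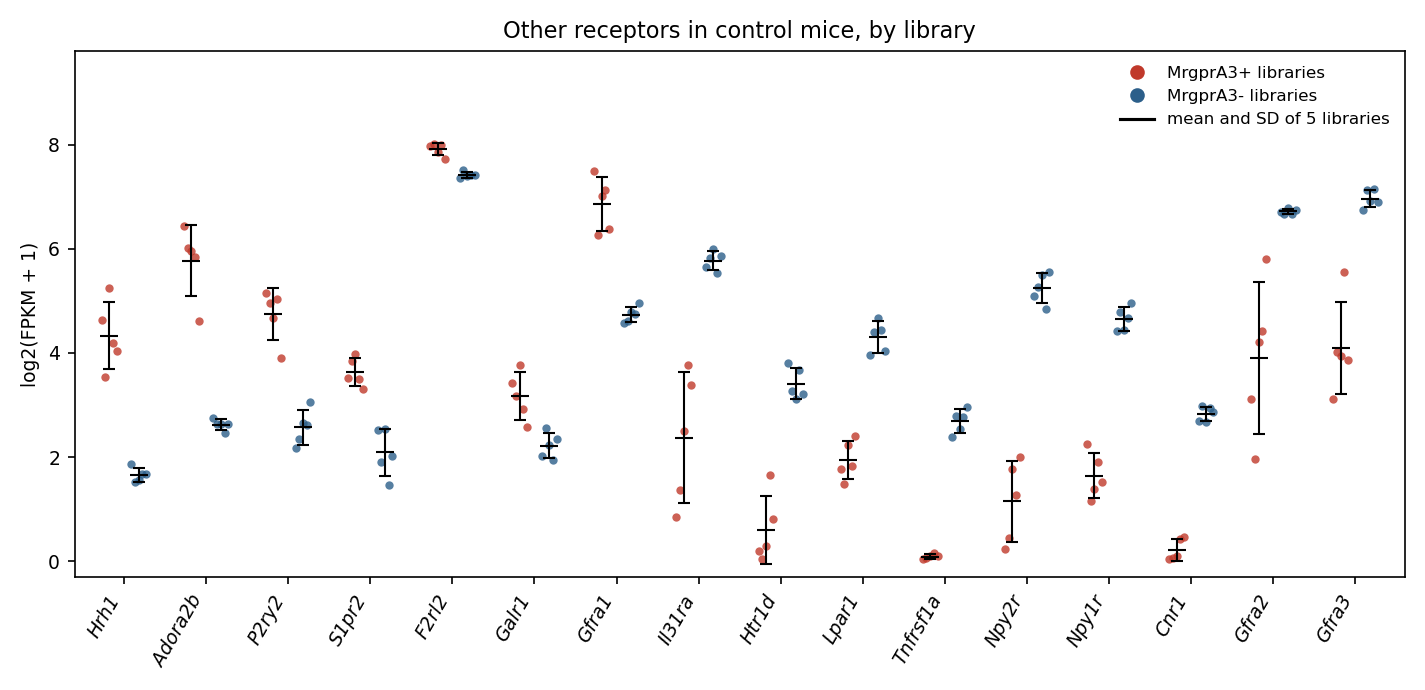
Level of 16 receptors outside the Mrgpr family, as log2(FPKM + 1), in each of the 5 MrgprA3+ (red) and 5 MrgprA3- (blue) libraries, with mean and SD. The first 7 genes lie higher in MrgprA3+ libraries and the others lower, and Gfra2 and Il31ra show the wide spread among MrgprA3+ libraries.

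Downstream of such receptors, G protein subunits were among the few lists with more rises than falls. Of 24 subunits kept of 27 listed, 6 rose (25%) and 4 fell (16.7%), against 8.15% and 15.8% of all genes kept. The median was 0.13 against -0.13 for all genes, and without MrgprA3- replicates 4 and 5, 3 rose. Gna14, an alpha subunit of the Gq group, stood at 196, 182, 158, 170.1 and 201 FPKM in MrgprA3+ libraries, against 125, 131, 154, 120.1 and 117 FPKM in MrgprA3- libraries (log2 difference 0.48, SE 0.10, adjusted p 0.00332). Gnaq itself did not pass (115 against 104 FPKM, adjusted p 0.382). Gnao1, an abundant alpha subunit of neurons, averaged 438 ± 46.5 FPKM in MrgprA3+ and 259.5 ± 22.4 FPKM in MrgprA3- libraries (0.75, SE 0.09, adjusted p 4.28e-05), and Gnal, a Gs-like subunit of sensory cells, averaged 176 ± 31.4 FPKM in MrgprA3+ and 112 ± 16.4 FPKM in MrgprA3- libraries (0.65, SE 0.13, adjusted p 0.00222). The subunits Gnb4 (43.4 against 119.9 FPKM; -1.47, SE 0.18) and Gng7 (0.142 against 3.02 FPKM; -1.82, SE 0.23) fell.

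Regulators of G protein signalling, arrestins and receptor kinases were likewise mixed, 6 higher (27.3%) and 5 lower (22.7%) of 22 kept of 25. All genes kept had 8.15% higher and 15.8% lower. Without MrgprA3+ replicate 5, 8 members of the list were lower. Rgs proteins shorten G protein signals by speeding the hydrolysis of GTP. Rgs17 stood at 26.4, 29.5, 33.6, 30.3 and 35 FPKM in MrgprA3+ libraries, against 14.4, 11.04, 11.6, 11.9 and 15.2 FPKM in MrgprA3- libraries (log2 difference 1.21, SE 0.15, adjusted p 4.51e-05). Rgs4 was far more abundant and rose to 1846, 1409.9, 1500.1, 1482 and 1711 FPKM in MrgprA3+ libraries, against 908, 848, 1223, 908 and 1218 FPKM in MrgprA3- libraries (0.65, SE 0.11, adjusted p 6.87e-04). Rgs5 averaged 56.1 ± 18.1 FPKM in MrgprA3+ and 12.3 ± 2.61 FPKM in MrgprA3- libraries (2.08, SE 0.22, adjusted p 9.64e-06); it is also a marker of pericytes, whose values are given with the other cell types below. Rgs12 (0.594 against 6.30 FPKM; -2.25, SE 0.29) and Rgs10 (174 against 242 FPKM; -0.47, SE 0.10) fell.

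Phospholipases, cyclases, phosphodiesterases and kinases had 5 rises (11.4%) and 14 falls (31.8%) of 44 kept of 54, against 8.15% and 15.8% of all genes kept. There were 3 rises without MrgprA3+ replicate 3 or any of MrgprA3- replicates 2, 4 and 5. Pde1c, a calmodulin-dependent phosphodiesterase of cyclic nucleotides, stood at 45.8, 32.2, 44.95, 38.1 and 43.2 FPKM in MrgprA3+ libraries, against 11.5, 12.3, 14.4, 15.3 and 19.7 FPKM in MrgprA3- libraries (log2 difference 1.43, SE 0.17, adjusted p 2.39e-05). Plcb3, the phospholipase C that links Gq to calcium release, was abundant in both and did not pass (115 against 92.7 FPKM, adjusted p 0.0517). The protein kinase C genes did not move together. Prkcd, an abundant member, did not pass (317 against 295 FPKM, adjusted p 0.652), whereas Prkcq averaged 11.8 ± 10.7 FPKM in MrgprA3+ and 44.3 ± 5.85 FPKM in MrgprA3- libraries (-2.26, SE 0.48, adjusted p 0.00461) and Prkcb averaged 0.560 ± 0.529 FPKM in MrgprA3+ and 7.33 ± 1.48 FPKM in MrgprA3- libraries (-2.46, SE 0.26, adjusted p 1.13e-05). Prkar1a, a regulatory subunit of protein kinase A, fell to 229, 208, 226, 213 and 263 FPKM in MrgprA3+ libraries, against 406, 442, 478, 477 and 457 FPKM in MrgprA3- libraries (-0.99, SE 0.09, adjusted p 1.72e-06).

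Most lists of ion channels held more falls than rises, as did all genes kept, of which 15.8% fell and 8.15% rose. TRP channels had 7 falls and 1 rise of 16 kept of 24, sodium channels 5 and 2 of 12 kept of 14, calcium channels 4 and 1 of 11 kept of 23 and potassium channels 21 and 4 of 45 kept of 67. In that order, falls made up 43.8%, 41.7%, 36.4% and 46.7% of the members kept, and rises 6.25%, 16.7%, 9.09% and 8.89%. After quantile normalization 3 calcium channels fell and 3 rose. Without both MrgprA3- replicates 4 and 5, 2 sodium channels fell. Trpa1, the irritant receptor that MrgprA3 signals through in mice, stood at 17.4, 11.7, 17.6, 13.4 and 26.2 FPKM in MrgprA3+ libraries, against 34.1, 38.97, 54.7, 36.7 and 43.6 FPKM in MrgprA3- libraries. It was detected in every MrgprA3+ library and below every MrgprA3- library (log2 difference -1.26, SE 0.20, adjusted p 3.49e-04). Trpv2 (46.8 against 86.8 FPKM; -0.91, SE 0.15) and Trpc4 (0.224 against 3.30 FPKM; -1.85, SE 0.25) fell as well. The sodium channels of nociceptors did not pass: Scn10a, which encodes Nav1.8, averaged 195 ± 31.1 FPKM in MrgprA3+ and 185 ± 26.7 FPKM in MrgprA3- libraries (adjusted p 0.716), and Scn11a, which encodes Nav1.9, averaged 166 ± 15.2 FPKM in MrgprA3+ and 139.8 ± 26.7 FPKM in MrgprA3- libraries (adjusted p 0.140). Scn1a, a channel of large neurons, stood at 0.12, 0.08, 1.67, 0.09 and 0.02 FPKM in MrgprA3+ libraries, against 8.21, 7.54, 6.09, 7.46 and 5.68 FPKM in MrgprA3- libraries (log2 difference -2.62, SE 0.28, adjusted p 1.28e-05). Their auxiliary subunits divided, with Scn3b higher (41.6 against 24.4 FPKM; 0.74, SE 0.15) and Scn4b lower (0.766 against 7.67 FPKM; -2.36, SE 0.28).

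Among potassium channels, Kcnmb1, a subunit of the large calcium-activated BK channel, stood at 195, 163, 139, 171 and 160.0 FPKM in MrgprA3+ libraries, against 52.3, 53.6, 42.97, 48.6 and 38.8 FPKM in MrgprA3- libraries (log2 difference 1.79, SE 0.12, adjusted p 2.22e-07). The 2-pore channel Kcnk18, also called TRESK, overlapped at a single value, 12.9 FPKM in MrgprA3+ replicate 5 and in MrgprA3- replicate 1, and still rose (25.5 against 9.06 FPKM; 1.36, SE 0.25). Kcnt1, a sodium-activated channel, averaged 41.9 ± 8.31 FPKM in MrgprA3+ and 22.5 ± 3.77 FPKM in MrgprA3- libraries (0.87, SE 0.16, adjusted p 0.00132). The largest falls of the list were those of Kcna1 (1.31 against 19.6 FPKM; -3.30, SE 0.32), Kcnk1 (2.61 against 26.4 FPKM; -3.02, SE 0.33) and the auxiliary subunit Kcnab1 (24.9 against 129.9 FPKM; -3.00, SE 0.66). Kcnab1 ran from 2.54 to 65.5 FPKM among MrgprA3+ libraries.

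Cacnb4, a beta subunit of calcium channels (8.66 against 25.6 FPKM; -1.57, SE 0.25), and the T-type channel Cacna1h (0.194 against 3.06 FPKM; -1.76, SE 0.21) fell, and Cacng2, also called stargazin, rose (4.39 against 1.36 FPKM; 1.22, SE 0.25). Of 7 HCN, ASIC and Piezo channels kept of 14, 3 fell and none rose. The acid-sensing channel Asic3 stood at 0.47, 0.38, 5.59, 4.10 and 2.37 FPKM in MrgprA3+ libraries, against 64.8, 67.5, 53.4, 72.4 and 63.96 FPKM in MrgprA3- libraries (log2 difference -4.46, SE 0.37, adjusted p 9.51e-07). It was under 0.5 FPKM in MrgprA3+ replicates 1 and 2 and between 2 and 6 FPKM in the others. The touch channel Piezo2 averaged 10.3 ± 3.50 FPKM in MrgprA3+ and 24.7 ± 3.19 FPKM in MrgprA3- libraries (-1.25, SE 0.23, adjusted p 0.00116). Anoctamins and chloride transporters had 5 falls and 1 rise of 13 kept of 20 (3 falls and 2 rises after median-ratio rescaling, 3 falls without MrgprA3+ replicate 1 or any of MrgprA3- replicates 2 to 5), with Ano3 at -1.42 (SE 0.28). Slc12a2, the transporter that loads sensory neurons with chloride, did not pass (14.5 against 10.4 FPKM, adjusted p 0.130).

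Receptors for fast transmitters had no rise. Glutamate and GABA-A receptor genes had 14 falls of 19 kept of 40 (median -1.40), and nicotinic and muscarinic receptors 6 falls of 9 kept of 16 (median -1.92). These are shares of 73.7% and 66.7%, against 15.8% of all genes kept. The kainate receptor Grik1 stood at 45.03, 29.1, 60, 69.1 and 111 FPKM in MrgprA3+ libraries, against 281, 301, 311, 221 and 214 FPKM in MrgprA3- libraries (log2 difference -2.18, SE 0.26, adjusted p 4.76e-05). Gria1, an AMPA receptor subunit, was under 0.5 FPKM in MrgprA3+ replicates 1 to 4 and at 3.79 FPKM in replicate 5, against 4.93 to 8.77 FPKM in MrgprA3- libraries. The nicotinic subunits Chrna3 (1.16 against 12.3 FPKM; -2.68, SE 0.30), Chrnb4 (1.28 against 11.7 FPKM; -2.58, SE 0.39) and Chrna6 (16.3 against 58.1 FPKM; -1.99, SE 0.37) fell together with Ache, the enzyme that breaks down acetylcholine, which stood at 1.22, 0.64, 8.56, 11.5 and 4.07 FPKM in MrgprA3+ and 88.9, 100.3, 75.5, 76.6 and 52.98 FPKM in MrgprA3- libraries (log2 difference -4.07, SE 0.48, adjusted p 5.38e-05).

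Of 11 neuropeptide genes kept of 21, 2 rose (18.2%) and 7 fell (63.6%), against 8.15% and 15.8% of all genes kept. Nmb, neuromedin B, which carries itch signals to the spinal cord in mice, stood at 203, 178, 174, 234 and 198 FPKM in MrgprA3+ libraries, against 119.6, 99.2, 114, 102 and 139 FPKM in MrgprA3- libraries (log2 difference 0.78, SE 0.12, adjusted p 1.85e-04). Calca, which encodes the peptide CGRP, was the most abundant peptide gene in both populations at 5116, 5467, 4380.3, 5768 and 4914 FPKM in MrgprA3+ and 3196, 3077, 2628, 4042 and 4133 FPKM in MrgprA3- libraries (log2 difference 0.60, SE 0.11, adjusted p 0.00127). Tac1, which encodes substance P, ran the other way, at 102, 93.4, 149.8, 263 and 247 FPKM in MrgprA3+ libraries, against 951, 1237, 1002, 1173 and 1195 FPKM in MrgprA3- libraries (log2 difference -2.81, SE 0.27, adjusted p 1.83e-05). Within the MrgprA3+ libraries Tac1 was highest in replicates 4 and 5. Galanin, Gal, averaged 23.4 ± 18.8 FPKM in MrgprA3+ and 142 ± 29.2 FPKM in MrgprA3- libraries (-3.08, SE 0.67, adjusted p 0.00739).

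The release machinery had 4 rises (10.5%) and 20 falls (52.6%) of 38 kept of 41, against 8.15% and 15.8% of all genes kept. Synaptotagmins are the calcium sensors of vesicle fusion, and 2 of them rose, Syt5 at 452, 450.4, 437, 418 and 377 FPKM in MrgprA3+ and 266, 235, 237, 224 and 196 FPKM in MrgprA3- libraries (log2 difference 0.88, SE 0.09, adjusted p 1.02e-05) and Syt7 at 24.5 against 13.2 FPKM (0.84, SE 0.19, adjusted p 0.00548). The vesicle protein Syngr3 rose by 0.38 (SE 0.09) and the synuclein Sncg by 0.58 (SE 0.09). Snap25, a core part of the fusion complex, stood at 378, 342, 396, 317 and 422 FPKM in MrgprA3+ libraries, against 927, 964, 832, 1081 and 829.9 FPKM in MrgprA3- libraries (log2 difference -1.32, SE 0.10, adjusted p 4.11e-07). Sv2b, a vesicle glycoprotein, was lower still in proportion, at 0.25, 0.19, 2.38, 0.96 and 0.11 FPKM in MrgprA3+ and 20.4, 23.5, 21.5, 14.6 and 18.9 FPKM in MrgprA3- libraries (log2 difference -3.67, SE 0.30, adjusted p 9.20e-07). Rph3a, an effector of Rab3, averaged 15.1 ± 4.49 FPKM in MrgprA3+ and 59.4 ± 7.02 FPKM in MrgprA3- libraries (-1.96, SE 0.21, adjusted p 1.02e-05).

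Of 43 sensory transcription factors kept of 64 listed, 7 rose (16.3%) and 11 fell (25.6%), against 8.15% and 15.8% of all genes kept. After quantile normalization 11 rose and 9 fell. Without MrgprA3+ replicate 2 or 3, or without MrgprA3- replicate 2 or 4, 4 rose. Etv1, an ETS factor also called Er81, stood at 351, 254, 286, 209 and 155 FPKM in MrgprA3+ libraries, against 49.7, 52.2, 50.2, 53.04 and 48.6 FPKM in MrgprA3- libraries. It ran from 155 to 351 FPKM among MrgprA3+ libraries and was nearly level among MrgprA3- libraries (log2 difference 2.23, SE 0.17, adjusted p 4.27e-07). Isl2, a LIM homeobox factor, stood at 79.9, 95.7, 82.2, 56.96 and 60.2 FPKM in MrgprA3+ and 34.6, 30.7, 30.7, 29.04 and 28.6 FPKM in MrgprA3- libraries (log2 difference 1.24, SE 0.15, adjusted p 2.94e-05). The zinc finger factor Ovol2 stood at 24.6, 15.1, 17.9, 17.1 and 14.4 FPKM in MrgprA3+ and 0.62, 1.86, 1.31, 1.49 and 0.99 FPKM in MrgprA3- libraries (log2 difference 3.06, SE 0.23, adjusted p 4.27e-07). These 3 did not overlap between the populations. Klf7, a Krüppel-like factor needed for the survival of nociceptors, rose by less (489 against 325 FPKM; 0.59, SE 0.10).

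Runx1, which is needed for the development of non-peptidergic nociceptors and their Mrgpr receptors, stood at 5.18, 3.23, 8.50, 10.6 and 7.30 FPKM in MrgprA3+ libraries, against 19.6, 18.6, 17.1, 11.3 and 15.04 FPKM in MrgprA3- libraries (log2 difference -1.19, SE 0.26, adjusted p 0.00393). Pou4f3, a POU homeobox factor, stood at 0.39, 0.33, 0.21, 2.00 and 1.67 FPKM in MrgprA3+ and 29.1, 38.5, 29.4, 29.9 and 19.98 FPKM in MrgprA3- libraries (log2 difference -4.06, SE 0.29, adjusted p 3.06e-07). Prrxl1, a homeobox factor of small sensory neurons, averaged 22.7 ± 12.4 FPKM in MrgprA3+ and 51.8 ± 4.21 FPKM in MrgprA3- libraries (-1.29, SE 0.25, adjusted p 0.00155). Hox genes mark the level of a ganglion along the body axis. Of 12 kept of 39 listed, 6 fell (50%) and none rose, against 15.8% lower and 8.15% higher of all genes kept. Hoxb5 averaged 3.53 against 13.3 FPKM (-2.02, SE 0.45), and Hoxd8 did not pass (3.48 against 3.59 FPKM, adjusted p 0.749). Both populations were taken from the same ganglia, and whether they drew equally on each level was not tested.

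Receptors for neurotrophic factors divided by family member. Gfra1, the co-receptor for GDNF, stood at 178, 75.6, 129, 139.7 and 82.3 FPKM in MrgprA3+ libraries, against 22.96, 23.4, 26.7, 25.8 and 30.04 FPKM in MrgprA3- libraries (log2 difference 2.12, SE 0.20, adjusted p 3.92e-06). Gfra2, the co-receptor for neurturin, stood at 7.70, 2.88, 17.4, 20.5 and 55.1 FPKM in MrgprA3+ libraries, against 104, 101.3, 109, 100.8 and 106 FPKM in MrgprA3- libraries (log2 difference -2.81, SE 0.57, adjusted p 0.00497). Gfra3, the co-receptor for artemin, stood at 7.68, 15.2, 14.3, 45.8 and 13.7 FPKM in MrgprA3+ and 106, 138, 119.8, 139.9 and 118 FPKM in MrgprA3- libraries (log2 difference -2.86, SE 0.32, adjusted p 1.79e-05). Their shared signalling receptor Ret did not pass (78.2 against 70.3 FPKM, adjusted p 0.690). MrgprA3+ libraries thus held Gfra1 above, and Gfra2 and Gfra3 below, every MrgprA3- library. Ngfr, the low-affinity neurotrophin receptor, averaged 54.9 ± 4.97 FPKM in MrgprA3+ and 143 ± 9.35 FPKM in MrgprA3- libraries (-1.37, SE 0.10, adjusted p 4.11e-07). It is also on the list of Schwann cell markers, whose values are given with the other cell types below.

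Cell adhesion genes of the cadherin and contactin lists fell, 18 of 32 kept of 48, with 1 rise (median -1.17). Cntn1, a contactin of the axon surface, stood at 1.25, 0.32, 2.18, 1.19 and 1.32 FPKM in MrgprA3+ libraries, against 35.3, 29.3, 32.4, 24.9 and 30.3 FPKM in MrgprA3- libraries (log2 difference -3.85, SE 0.23, adjusted p 8.34e-08). Cdh1, E-cadherin, averaged 9.90 ± 9.95 FPKM in MrgprA3+ and 75.6 ± 23.2 FPKM in MrgprA3- libraries (-3.25, SE 0.53, adjusted p 9.39e-04), and the protocadherin Pcdh9 averaged 0.776 ± 0.674 FPKM in MrgprA3+ and 10.9 ± 1.60 FPKM in MrgprA3- libraries (-2.82, SE 0.27, adjusted p 4.21e-06). Axon guidance genes were mixed, with 7 rises (24.1%) and 8 falls (27.6%) of 29 kept of 66, against 8.15% and 15.8% of all genes kept. There were 9 rises and 5 falls after quantile normalization and 4 rises without MrgprA3- replicate 1. The semaphorin co-receptors were ordered in opposite ways, Nrp1 rising (47.9 against 24.3 FPKM; 0.93, SE 0.21) and Nrp2 falling (0.756 against 8.59 FPKM; -2.58, SE 0.32). The Eph receptor Ephb6 stood at 25.4, 21.8, 29.9, 34.7 and 30.1 FPKM in MrgprA3+ and 10.8, 8.59, 12.8, 7.46 and 10.2 FPKM in MrgprA3- libraries (log2 difference 1.42, SE 0.18, adjusted p 5.30e-05), and the Slit receptor Robo2 averaged 8.65 against 23.7 FPKM (-1.37, SE 0.21).

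Markers of most other sensory classes held more falls than rises, where 15.8% of all genes kept fell and 8.15% rose. All 8 low-threshold C fibre markers kept of 9 fell, 16 of 18 large neuron markers kept of 20, 9 of 12 NP3 markers and 9 of 14 peptidergic markers kept of 15. None of the first 2 lists rose, against 1 of the NP3 and 3 of the peptidergic markers, Calca and Nmb (above) among the latter. Th, tyrosine hydroxylase, a marker of low-threshold C fibres, stood at 5.21, 2.92, 28.2, 13.3 and 14.5 FPKM in MrgprA3+ libraries, against 179, 152, 161, 229.6 and 193 FPKM in MrgprA3- libraries (log2 difference -4.05, SE 0.44, adjusted p 4.87e-05). Il31ra stood at 0.80, 1.58, 4.68, 12.6 and 9.52 FPKM in MrgprA3+ and 49.1, 55.8, 62.8, 45.5 and 57.2 FPKM in MrgprA3- libraries (log2 difference -3.40, SE 0.45, adjusted p 9.28e-05), and Kit, a receptor kinase of peptidergic neurons, averaged 0.678 ± 0.553 FPKM in MrgprA3+ and 22.7 ± 6.88 FPKM in MrgprA3- libraries (-3.82, SE 0.28, adjusted p 3.56e-07). Of 13 NP1 markers, all kept, 6 fell, 5 did not pass and 2 rose (4 after median-ratio rescaling). Mrgprd, Grik1, Prkcq and Lpar3, given above, were among the falls. The monooxygenase-like gene Moxd1 rose, at 104, 99.2, 89.6, 77.3 and 116 FPKM in MrgprA3+ and 28.4, 29.8, 38.1, 33.2 and 29.1 FPKM in MrgprA3- libraries (log2 difference 1.58, SE 0.13, adjusted p 1.09e-06).

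**Figure D3:**
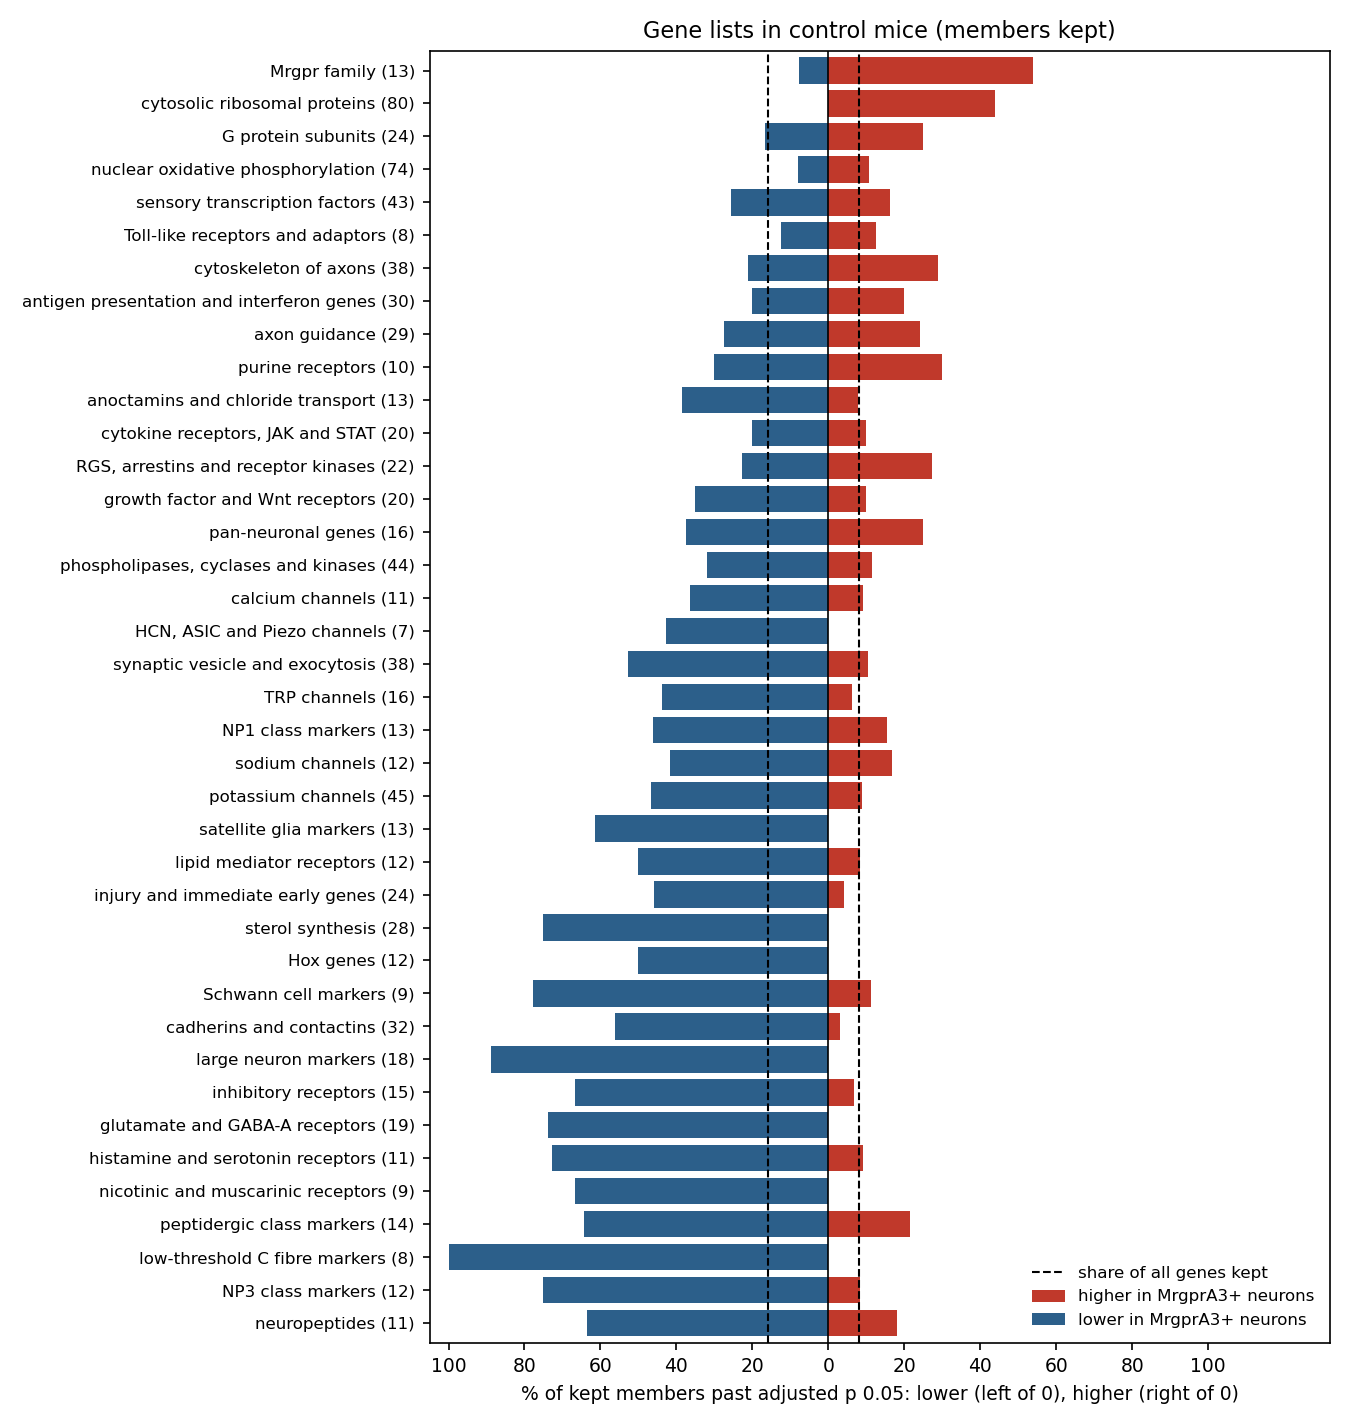
Share of kept members higher (red, to the right) and lower (blue, to the left) in MrgprA3+ neurons past an adjusted p of 0.05, for each gene list with at least 7 members kept (number in brackets), ordered by the median difference. Dashed lines mark the shares of all 11353 genes kept, 8.15% higher and 15.8% lower; the Mrgpr family and the ribosomal protein genes reach farthest to the right and the low-threshold C fibre markers farthest to the left.

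The genes of the axonal cytoskeleton split 11 higher (28.95%) to 8 lower (21.05%) of 38 kept of 39, against 8.15% and 15.8% of all genes kept. The split was 7 to 9 after quantile normalization. Peripherin, Prph, the intermediate filament of small neurons, stood at 446, 593, 558, 485 and 467 FPKM in MrgprA3+ libraries, against 433, 341, 279, 329 and 346 FPKM in MrgprA3- libraries (log2 difference 0.56, SE 0.11, adjusted p 0.00209). Nefh, the heavy neurofilament of large myelinated neurons, averaged 29.7 ± 5.59 FPKM in MrgprA3+ and 79.4 ± 21.1 FPKM in MrgprA3- libraries (-1.36, SE 0.19, adjusted p 1.43e-04), while the light neurofilament Nefl did not pass (4429.8 against 4302 FPKM, adjusted p 0.825). Stmn1, a regulator of microtubules, rose (861 against 579.7 FPKM; 0.56, SE 0.09), as did the growth cone protein Gap43 (408 against 256 FPKM; 0.70, SE 0.14).

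Of the 80 cytosolic ribosomal protein genes, all kept, 35 rose (43.8%) and none fell, with a median of 0.36. Rpl14 stood at 458, 423, 385, 404 and 392.02 FPKM in MrgprA3+ libraries, against 267, 225, 212, 236 and 233 FPKM in MrgprA3- libraries (log2 difference 0.81, SE 0.09, adjusted p 1.02e-05), and Rpl36a averaged 49.5 against 26.9 FPKM. The counts were 47 and 0 after median-ratio rescaling and 30 and 0 after quantile normalization, and 23 rose without MrgprA3- replicate 2. These genes have many processed pseudogenes, so that single values are uncertain. In the sterol synthesis list, 21 of 28 genes fell and none rose, and 19 fell under either rescaling. The sterol carrier Stard4 stood at 14.9, 2.70, 6.10, 9.24 and 9.05 FPKM in MrgprA3+ libraries, against 18.9, 26.3, 30.9, 24.1 and 19.3 FPKM in MrgprA3- libraries (log2 difference -1.54, SE 0.31, adjusted p 0.00200), and squalene synthase, Fdft1, did not pass (307 against 319 FPKM, adjusted p 0.685). Of 74 nuclear genes of oxidative phosphorylation, 8 rose and 6 fell, shares of 10.8% and 8.11%, and after quantile normalization 3 and 8, so that no direction held for this list. Leaving out a library moved its rises between 2 (without MrgprA3- replicate 2 or 3) and 16 (without MrgprA3+ replicate 2). The complex I subunit Ndufs1 averaged 51.3 against 76.7 FPKM (-0.58, SE 0.12).

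Antigen presentation and interferon genes had 6 rises and 6 falls of 30 kept of 37. Each share was 20%, against 8.15% higher and 15.8% lower of all genes kept. After median-ratio rescaling there were 6 rises and 1 fall and after quantile normalization 5 and 5. The number of falls also moved with single libraries, with 1 to 3 left without any one of MrgprA3+ replicates 1 to 3 or of the 5 MrgprA3- libraries. Lgals9, galectin 9, stood at 509, 506, 485, 690.4 and 517 FPKM in MrgprA3+ libraries, against 214, 214, 203, 236 and 258 FPKM in MrgprA3- libraries (log2 difference 1.26, SE 0.11, adjusted p 1.03e-06). The secreted protein Lgals3bp averaged 143 ± 16.3 FPKM in MrgprA3+ and 66.2 ± 9.88 FPKM in MrgprA3- libraries (1.10, SE 0.12, adjusted p 1.31e-05), and the interferon-induced Ifi27l2a averaged 25.9 ± 9.65 FPKM in MrgprA3+ and 3.65 ± 0.980 FPKM in MrgprA3- libraries (2.48, SE 0.25, adjusted p 7.88e-06). Ifit3, another interferon-induced gene, rose (27.1 against 13.2 FPKM; 1.07, SE 0.24) although MrgprA3- replicate 5, at 25.1 FPKM, lay within the MrgprA3+ range. B2m, the light chain of class I molecules, fell (50.5 against 79.5 FPKM; -0.70, SE 0.17).

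Nerve injury and immediate early genes had 1 rise (4.17%) and 11 falls (45.8%) of 24 kept of 31, against 8.15% and 15.8% of all genes kept. Here MrgprA3- replicates 4 and 5 stood apart. Sprr1a, a small proline-rich protein induced by axon injury, overlapped and stood at 0.24, 0.47, 0.40, 1.95 and 5.39 FPKM in MrgprA3+ libraries, against 1.82, 1.06, 1.09, 75.3 and 90.8 FPKM in MrgprA3- libraries. MrgprA3- replicates 4 and 5 were over 40 times above the other MrgprA3- libraries, and the difference between populations did not pass (adjusted p 0.223). Atf3, the transcription factor widely used as a sign of injury, was high in the same libraries, at 16.04, 15.4, 11.2, 18.04 and 16.3 FPKM in MrgprA3+ libraries, against 38.1, 32.5, 31.1, 75.5 and 104 FPKM in MrgprA3- libraries (log2 difference -1.65, SE 0.29, adjusted p 7.21e-04). Its MrgprA3+ libraries lay below all MrgprA3- libraries. Nts, neurotensin, was high in the same MrgprA3- libraries, at 0.56, 1.60, 6.72, 5.88 and 17.2 FPKM in MrgprA3+ and 43.9, 31.2, 30.8, 117 and 107 FPKM in MrgprA3- libraries (-3.44, SE 0.64, adjusted p 0.00252). Among MrgprA3+ libraries, replicates 4 and 5 also held the most Sprr1a. Tubb6, a tubulin, averaged 1.94 ± 2.34 FPKM in MrgprA3+ and 13.1 ± 6.72 FPKM in MrgprA3- libraries (-2.43, SE 0.43, adjusted p 7.16e-04). The immediate early gene Fos did not pass (42.9 against 54.6 FPKM, adjusted p 0.232). Without MrgprA3- replicates 4 and 5, 8 members of the list fell.

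Of the 20 most abundant transcripts of MrgprA3+ neurons, 15 rose, 0 fell and 5 did not pass, against 8.15% higher and 15.8% lower of all genes kept. They were picked for a high level in these same MrgprA3+ libraries, which favours rises, so that the count supports nothing. The first was Ubb, a ubiquitin gene whose copies share sequence, at 16195, 15043, 15368, 14939.7 and 14169.6 FPKM in MrgprA3+ and 13071, 11841, 8001, 12802 and 9115 FPKM in MrgprA3- libraries (log2 difference 0.49, SE 0.11, adjusted p 0.00556). Lxn stood at 3441, 3168, 2735, 2285 and 2072 FPKM in MrgprA3+ libraries, against 606, 498, 541, 525 and 539 FPKM in MrgprA3- libraries (log2 difference 2.31, SE 0.12, adjusted p 1.20e-08). No other gene among these 20 was on the list of the 30 largest rises. Fxyd2, a regulatory subunit of the sodium pump, stood at 3489.5, 2701, 2778, 3185 and 3043 FPKM in MrgprA3+ and 1685, 1282, 1322, 1106 and 1200.0 FPKM in MrgprA3- libraries (log2 difference 1.21, SE 0.10, adjusted p 1.17e-06). Of its relatives, Fxyd7 averaged 12.6 ± 9.24 FPKM in MrgprA3+ and 140.3 ± 12.1 FPKM in MrgprA3- libraries (-3.84, SE 0.58, adjusted p 7.72e-04) and Fxyd6 averaged 5.64 ± 3.92 FPKM in MrgprA3+ and 62.02 ± 8.37 FPKM in MrgprA3- libraries (-3.43, SE 0.31, adjusted p 1.95e-06); the 3 FXYD genes were set side by side after their values were seen. The ferritin light chain Ftl1 averaged 2894 against 1361 FPKM (1.09, SE 0.09), the LIM protein Crip2 averaged 2168 against 952 FPKM (1.18, SE 0.09) and Skp1a, a ubiquitin ligase subunit, averaged 2652 against 1453 FPKM (0.84, SE 0.11). The chaperone Hspa8 did not pass (3449.8 against 3680.0 FPKM, adjusted p 0.366), and the annexin Anxa2 rose by 0.64 (SE 0.09) as deposited and by 0.03 after quantile normalization.

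The 30 largest rises, between 2.12 and 5.74 in log2, and the 30 largest falls, between 3.10 and 5.44, were taken from genes of at least 5 FPKM in the higher population whose libraries did not overlap. Ptpn6, the tyrosine phosphatase SHP-1, best known from blood cells, stood at 14.1, 29.5, 21.6, 16.3 and 13.9 FPKM in MrgprA3+ libraries, against 1.17, 0.17, 0.42, 1.07 and 0.51 FPKM in MrgprA3- libraries (log2 difference 3.57, SE 0.27, adjusted p 4.27e-07). Cd8a, a co-receptor of T cells, stood at 4.61, 6.83, 9.05, 3.08 and 3.32 FPKM in MrgprA3+ and 0.22, 0.12, 0.11, 0.03 and 0 FPKM in MrgprA3- libraries (log2 difference 2.46, SE 0.27, adjusted p 1.31e-05). The leukocyte gene Ptprc was 0 in every MrgprA3+ library. Of 17 macrophage and leukocyte markers 3 were kept, and of these 1 rose and 2 fell. All genes kept had 8.15% rises and 15.8% falls. Which cells the Ptpn6 and Cd8a transcripts came from was not tested. Mustn1, known from muscle and bone, stood at 40.1, 34.3, 37.5, 12.2 and 14.99 FPKM in MrgprA3+ and 1.33, 1.95, 1.45, 1.47 and 2.01 FPKM in MrgprA3- libraries, highest in MrgprA3+ replicates 1 to 3 (log2 difference 3.30, SE 0.31, adjusted p 3.30e-06). Rspo1, which amplifies Wnt signals, averaged 24.5 ± 5.70 FPKM in MrgprA3+ and 1.95 ± 0.946 FPKM in MrgprA3- libraries (3.14, SE 0.25, adjusted p 8.64e-07). Krt27, a keratin known from hair follicles, averaged 53.1 ± 10.2 FPKM in MrgprA3+ and 6.35 ± 1.30 FPKM in MrgprA3- libraries, the LIM protein Crip1 averaged 47.9 ± 14.1 FPKM in MrgprA3+ and 4.81 ± 0.752 FPKM in MrgprA3- libraries and Nlrx1, a mitochondrial protein of the NOD-like family, averaged 38.9 ± 8.28 FPKM in MrgprA3+ and 5.18 ± 1.13 FPKM in MrgprA3- libraries. Their differences were 2.88, 3.03 and 2.68.

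The other rises were the nesprin Syne4 (2.79), the membrane protease Tmprss11c (2.78), the guanine deaminase Gda (2.38), Gm10007 (2.36), the cytochrome P450 Cyp4b1 (2.33), the adhesion molecule Esam (2.32), 1810020O05Rik (2.32), the microRNA gene Mir671 (2.32), angiotensinogen, Agt (2.27), and the membrane protein Mlc1 (2.12), besides those given above. Mir671 rests on 12.8, 11.7, 5.36, 6.87 and 9.76 FPKM in MrgprA3+ and 4.64, 0, 0, 4.44 and 0 FPKM in MrgprA3- libraries.

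The largest fall was that of the ribosomal RNA gene Rn28s1, whose level in libraries of polyadenylated RNA was 0, 8.41, 20.5, 0 and 10.7 FPKM in MrgprA3+ libraries, against 142, 227, 526, 93.9 and 220.1 FPKM in MrgprA3- libraries (log2 difference -5.44, SE 0.90, adjusted p 0.00147). After Asic3 came Cpne6, a calcium-dependent copine, at 3.08, 1.47, 27.4, 13.4 and 8.87 FPKM in MrgprA3+ libraries, against 211, 169, 119, 193 and 162 FPKM in MrgprA3- libraries (log2 difference -4.33, SE 0.57, adjusted p 3.26e-04). Nrip3 averaged 4.37 ± 2.50 FPKM in MrgprA3+ and 77.1 ± 6.498 FPKM in MrgprA3- libraries, Sytl2, a synaptotagmin-like protein, averaged 1.94 ± 1.56 FPKM in MrgprA3+ and 36.4 ± 3.25 FPKM in MrgprA3- libraries and the sushi domain protein Susd2 averaged 26.97 ± 18.8 FPKM in MrgprA3+ and 199 ± 20.3 FPKM in MrgprA3- libraries. Their differences were -4.01, -3.86 and -3.14. Further falls were Rprm (-3.46), the phospholipase Plcd4 (-3.35), the kinase Pnck (-3.32), Tmem72 (-3.29), Chp2 (-3.23), somatostatin, Sst (-3.20), Zcchc12 (-3.15), C1qtnf1 (-3.14), Lgi3 (-3.12), the kinase Pak1 (-3.10) and the efflux transporter Abcg2 (-3.10).

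Replicates 1 and 2 gave the lowest MrgprA3+ value in 26 of the 30 genes, 6 in replicate 1 and 20 in replicate 2, and the highest in none. The median FPKM over the 30 falls was 0.675, 0.350, 3.44, 2.58 and 2.62 in MrgprA3+ replicates 1 to 5, against 35.1, 38.05, 35.8, 30.7 and 36.7 in MrgprA3- replicates 1 to 5. Among the rises, replicate 1 gave the highest MrgprA3+ value in 17 of 30 genes and replicate 5 the lowest in 17. On the second principal component of all genes kept, MrgprA3+ replicate 2 lay at 41.4 and replicates 4 and 5 at -36.0 and -34.2, whereas the MrgprA3- libraries lay between -3.16 and 7.78.

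**Figure D4:**
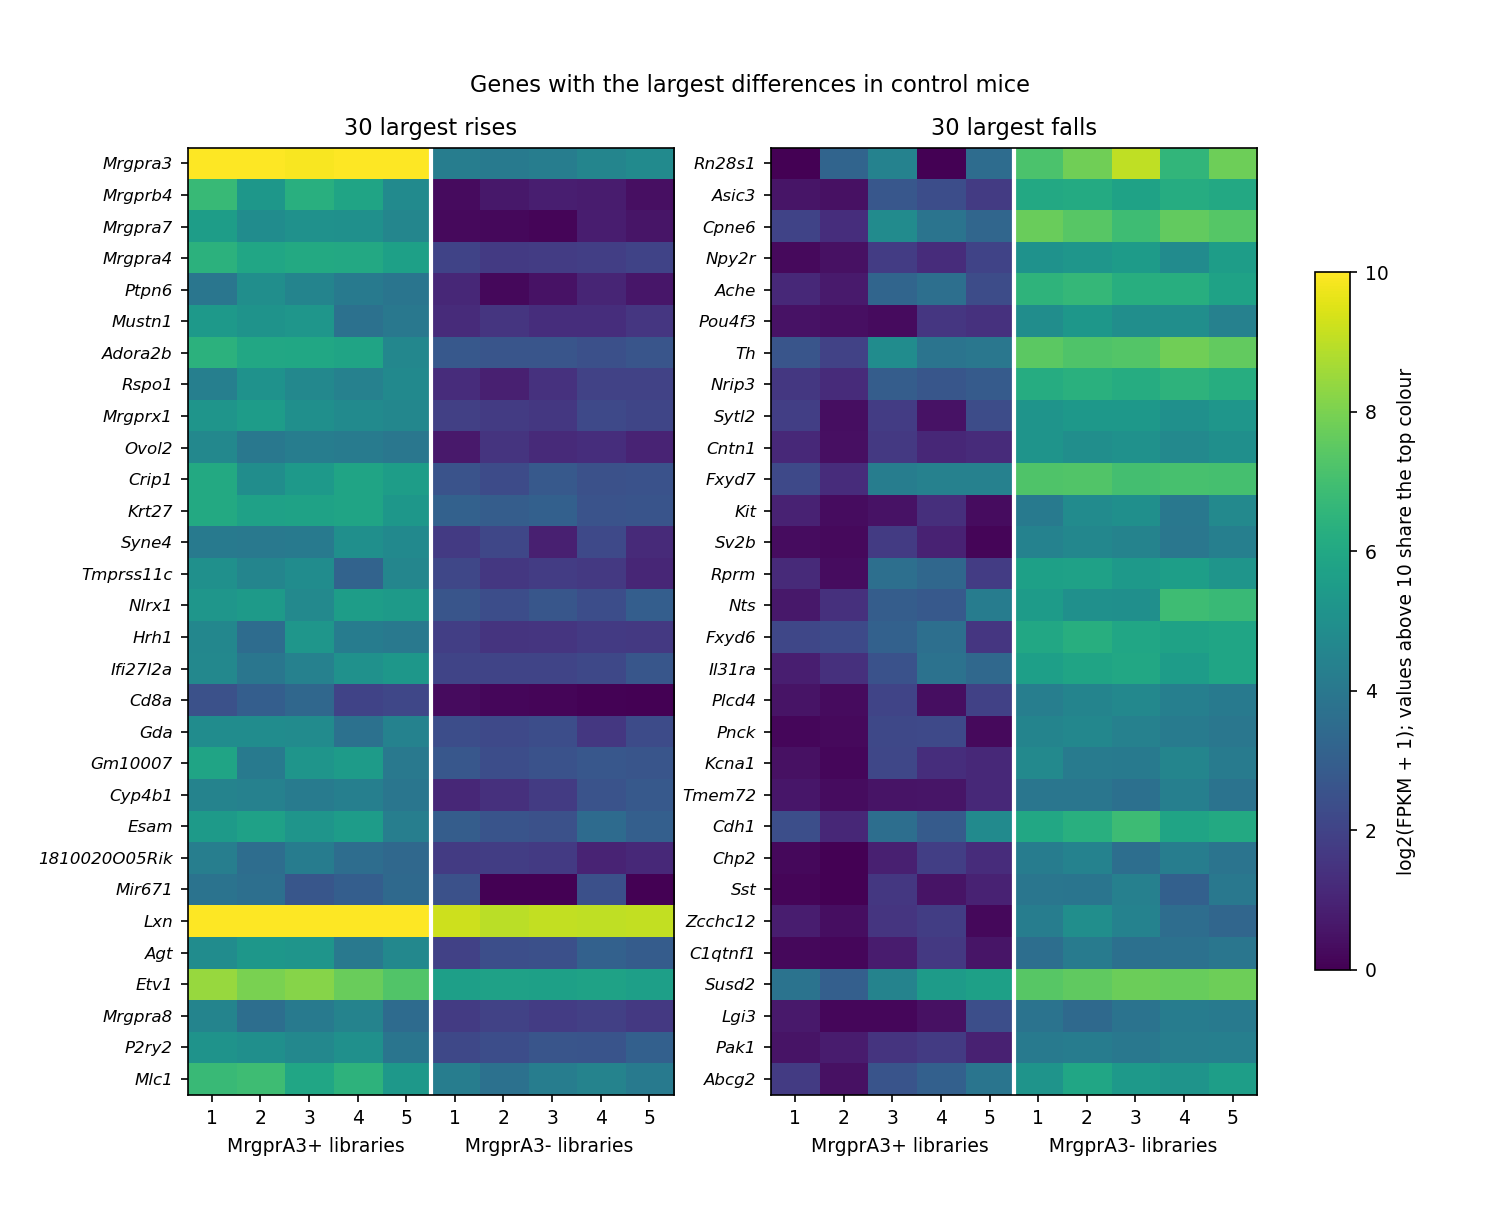
Level of the 30 genes with the largest rise (left) and the 30 with the largest fall (right), as log2(FPKM + 1), in the 5 MrgprA3+ and 5 MrgprA3- libraries of control mice. Mrgpra3 and Lxn are the brightest rises; among the falls, MrgprA3+ replicates 1 and 2 are darker than replicates 3 to 5.

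The same 60 genes were looked at in the libraries of ACD mice, which had no part in choosing them. There 797 genes were higher (7.02%) and 1749 lower (15.4%) in MrgprA3+ neurons, 2546 in all (22.4% of the 11353), and 1651 genes were called the same way in both treatments and 0 in opposite ways. All 30 rises had the same sign in ACD mice and 29 passed, with a median of 2.71 in ACD mice and 2.67 in control mice. Mir671 was the exception (0.09, adjusted p 0.953). All 30 falls passed in ACD mice, with a median of -2.61 there and -3.43 in control mice. Because rises and falls were both chosen for large differences without overlap in control mice, the medians do not measure an effect of treatment. Such a choice can make a median smaller in other libraries, though that of the rises was not smaller. Why the median of the falls was smaller in size in ACD mice was not tested. The test of the difference between treatments called 0 of 11353 genes (0%) by limma with Benjamini-Hochberg adjustment, and 517 genes had an unadjusted p under 0.05.

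Mrgpra3 differed by 5.51 in ACD and 5.74 in control mice, Adora2b by 3.41 and 3.14, Etv1 by 2.30 and 2.23, and Kcnmb1 by 1.69 and 1.79. S1pr2 differed by 1.02 in ACD and 1.54 in control mice and Gfra1 by 1.96 and 2.12. Of the 35 ribosomal protein genes that rose in control mice 9 passed in ACD mice, and of the 21 sterol genes that fell 16 passed there.

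**Figure D5:**
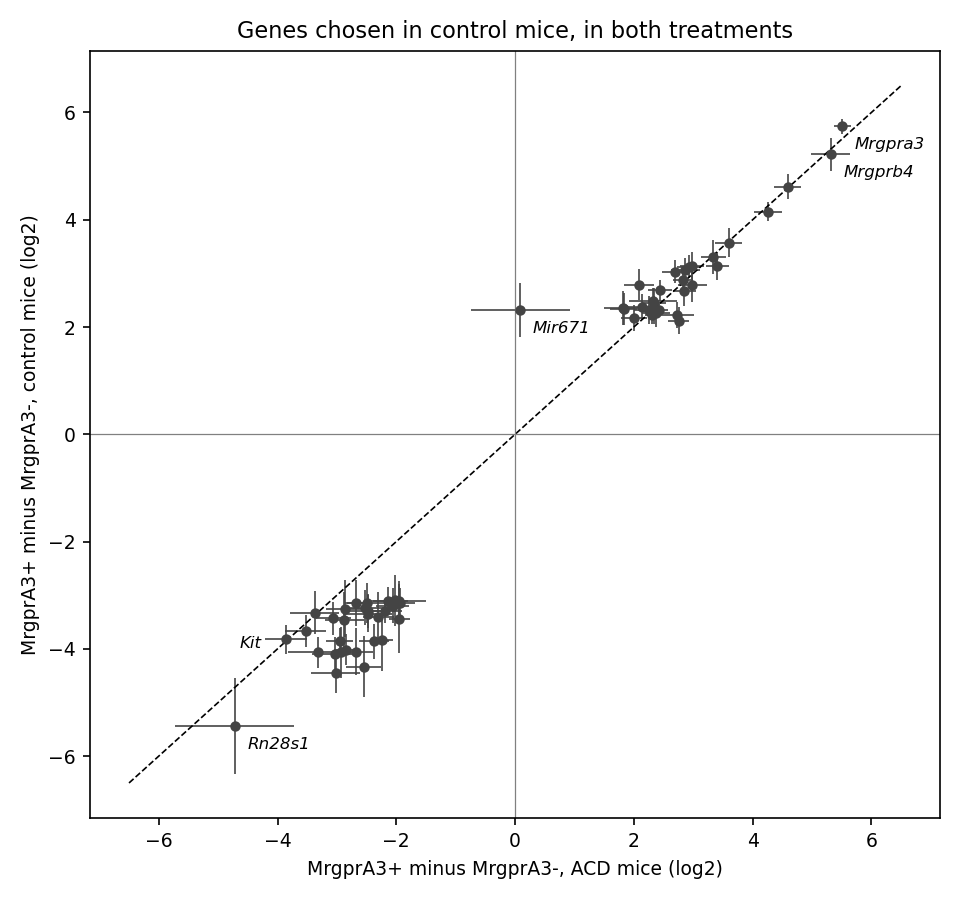
MrgprA3+ minus MrgprA3- difference in log2(FPKM + 1), with SE, of the 30 largest rises and 30 largest falls chosen in control mice, plotted for control mice (vertical axis) against ACD mice (horizontal axis). The dashed line marks equal values. Mir671 is the rise that lies near 0 in ACD mice. The falls lie mostly below the line, larger in control mice, in which they were chosen.

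Transcripts of other cell types also differed between the populations. The summed FPKM of 15 satellite glia markers was 269.7 to 435 in MrgprA3+ and 537 to 659 in MrgprA3- libraries, and the mean log2(FPKM + 1) of the list was lower by 0.78 (exact two-sided permutation p 0.00794, the smallest that 5 against 5 allow; adjusted 0.0127 over 8 values). Of the list 13 were kept and 8 fell, or 5 without MrgprA3- replicates 4 and 5, for example Sparcl1 (5.55 against 28.8 FPKM). The mean of 14 Schwann cell markers was lower by 0.81 (exact permutation p 0.00794, adjusted 0.0127), with S100b at 12.1, 6.30, 18.8, 28.4 and 18.9 FPKM in MrgprA3+ and 115, 78.3, 61.6, 115 and 102 FPKM in MrgprA3- libraries. Pmp22, a myelin gene, rose (1267 against 929 FPKM) and put the summed Schwann list at 1258 to 1552 FPKM in MrgprA3+ and 1115 to 1387 FPKM in MrgprA3- libraries.

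The mean of macrophage and leukocyte markers was lower by 0.24 and that of fibroblast and blood markers by 0.31 (exact permutation p 0.0238 and adjusted 0.0272 for each). Macrophage and leukocyte markers summed to 5.35 to 12.2 FPKM in MrgprA3+ and 6.71 to 21.3 FPKM in MrgprA3- libraries, with 12 of 17 under 1 FPKM in each library of either population and Adgre1, C1qa, Fcer1g, Ptprc and Tyrobp at 0 in every MrgprA3+ library. Endothelial and mural markers summed to 56.5 to 123 FPKM in MrgprA3+ and 23.4 to 30.9 FPKM in MrgprA3- libraries. Rgs5 and Esam led that sum, and Cdh5, Des, Kcnj8 and Myh11 were at 0 in every MrgprA3+ library. The mean log2(FPKM + 1) of the list did not differ beyond the spread (exact permutation p 0.373), and the sum itself was not tested. Fibroblast and blood markers summed to 5.32 to 16.8 FPKM in MrgprA3+ and 13.9 to 39.2 FPKM in MrgprA3- libraries. MrgprA3+ libraries held 13448 to 14246 genes above 0 FPKM and MrgprA3- libraries 15534 to 16163 (exact permutation p 0.00794). The part of glial transcripts, of Rn28s1 and of the number of genes detected in the falls was not tested.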

How the data were processed

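RNA of sorted MrgprA3+ and MrgprA3- neurons was sequenced as polyadenylated libraries, per the labels' protocols. Expression is given as FPKM per gene in the authors' deposited table, aligned with Bowtie2 to mm9, per the submitters' processing notes; the sources used here give neither version nor annotation, counting tool or use of strand. No counts were used. Depth is approximate, read from the steps between the lowest values of 1074 genes of 300 to 900 bp. Symbols turned into dates were restored (25 genes), and 8 genes without a symbol kept their identifier.

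Genes that reached 1 FPKM in 4 or more of the 10 control libraries were kept, so that a gene could enter through 1 population alone. Values were taken as log2(FPKM + 1), which understates differences of genes of low level, and fitted with limma 3.58.1 (lmFit and eBayes with trend and robust settings, statmod 1.5.0, R 4.3.3), with Benjamini-Hochberg adjustment over all genes kept and a threshold of 0.05. Exact permutation tests (scipy 1.17.1) compared list means per library, the number of genes above 0 FPKM and the level of Rn28s1. They also compared the share of summed FPKM in the 20 highest genes. Summed levels of marker lists were not tested. The procedure was tested on simulated data. Promoters came from RefSeq.

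Genes are named by this rule: the 30 largest rises and 30 largest falls past the threshold, with at least 5 FPKM in the higher population and no overlap; the 20 most abundant genes of MrgprA3+ libraries; members of 44 gene lists with the largest difference, the highest level or a role told in the text; and Mrgpra3, Mrgprb4 and Hrh1. The members and lists were chosen with earlier results of these data known. Some genes are not reported here. Alternatives were a pseudocount of 0.1, other filters, other scalings, a replicate block, library weights, the spread of all 19 libraries and leaving out libraries.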

Additional observations from a re-analysis of the deposited data

Results flagged for a closer look

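Dixon's criterion was applied in each population to 179 genes and to values per library such as list means, 372 cases in all. In 18 of them (4.84%), all of genes, 1 of the 5 libraries lay far from the other 4, and chance gives about 1 in 20. MrgprA3+ replicates 3 and 5 held 4 of these values each, MrgprA3+ replicate 4 held 3, MrgprA3+ replicates 1 and 2 held 1 each, and the MrgprA3- libraries held 5 in all.

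Among MrgprA3+ libraries, 12 values were single high ones. Skp1a stood at 3661 FPKM in replicate 2, against 2234 to 2595 FPKM in the other 4. Gng7 stood at 0.58 FPKM in replicate 3, against 0 to 0.11 FPKM in the other 4. Scn1a stood at 1.67 FPKM in replicate 3, against 0.02 to 0.12 FPKM in the other 4. Scn4b stood at 2.08 FPKM in replicate 3, against 0.19 to 0.70 FPKM in the other 4. Trpc4 stood at 0.98 FPKM in replicate 3, against 0.03 to 0.04 FPKM in the other 4. C1qtnf1 stood at 2.16 FPKM in replicate 4, against 0.13 to 0.68 FPKM in the other 4. Gfra3 stood at 45.8 FPKM in replicate 4, against 7.68 to 15.2 FPKM in the other 4. Lgals9 stood at 690.4 FPKM in replicate 4, against 485 to 517 FPKM in the other 4. Gria1 stood at 3.79 FPKM in replicate 5, against 0.03 to 0.49 FPKM in the other 4. Lgi3 stood at 4.25 FPKM in replicate 5, against 0.12 to 0.60 FPKM in the other 4. Mrgprd stood at 174 FPKM in replicate 5, against 30.7 to 54.5 FPKM in the other 4. Tubb6 stood at 6.00 FPKM in replicate 5, against 0.16 to 1.62 FPKM in the other 4. Single low values in MrgprA3+ libraries numbered 1. Rph3a stood at 7.44 FPKM in replicate 1, against 15.9 to 19.2 FPKM in the other 4.

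Among MrgprA3- libraries, 3 values were single high ones. Cacng2 stood at 2.60 FPKM in replicate 1, against 0.83 to 1.21 FPKM in the other 4. Ifi27l2a stood at 5.38 FPKM in replicate 5, against 3.09 to 3.46 FPKM in the other 4. Ifit3 stood at 25.1 FPKM in replicate 5, against 8.37 to 11.5 FPKM in the other 4. Single low values in MrgprA3- libraries numbered 2. Rgs5 stood at 7.73 FPKM in replicate 2, against 12.7 to 14.5 FPKM in the other 4. Gda stood at 2.11 FPKM in replicate 4, against 3.61 to 4.16 FPKM in the other 4.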

How the results depend on the processing

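Without MrgprA3- replicates 4 and 5, left out after seeing the data because Sprr1a and Atf3 were high there, 488 genes were higher and 1023 lower with fewer samples; leaving out any single library gave 657 to 968 higher and 1329 to 1949 lower. A filter of 5 FPKM, which tests 7644 genes, gave 847 higher and 1164 lower. No filter, which tests 18011 genes, gave 859 and 2429, a pseudocount of 0.1 gave 892 and 1669, weights by population 807 and 1780, and the spread of all 19 libraries 1022 and 2009. Rescaling moved the balance as given in the report. With the replicate number as a block, 898 genes were higher and 1791 lower; the deviations of same-numbered libraries correlated at -0.06, 0.08, -0.0045, 0.09 and 0.14 for replicates 1 to 5, and the numbers were not taken as pairs. MrgprA3+ replicates 2 and 5 matched best with their own number, and the other 3 did not.

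No called gene among the 179 named changed direction under these settings, of which the filter of 5 FPKM covered 169 genes, and none lost its call on leaving out a single library. Quantile normalization ended the calls of Anxa2 (0.03), Pmp22 (0.16) and Ubb (0.10). Weights by population ended those of Il2rg, Mir671 and Ubb (adjusted p 0.0546, 0.109 and 0.116). Without MrgprA3- replicates 4 and 5, B2m, Galr1, Gna14, Lpar3 and P2rx2 had adjusted p of 0.0653, 0.0788, 0.0506, 0.0503 and 0.0769. The rises of ribosomal protein genes then numbered 14 and the falls of Schwann cell markers 4. In the main fit 7 of 9 Schwann cell markers kept fell, and after quantile normalization 4 did. List counts of 1 or 2 often moved when a library was left out. The cause was not tested. For the population difference in ACD mice the calls numbered 2428 with a pseudocount of 0.1, 2630 with median-ratio rescaling and 2432 with quantile normalization, and the test of the difference between treatments called 0 genes under each.

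Depth limits genes of low level, FPKM carries no counting error here, and the p-values cover 5 libraries a population.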
